A study of Mus musculus with 4 samples.

Results

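The aquaporins are a family of membrane channels, and 10 of its genes (Aqp1, Aqp2, Aqp3, Aqp4, Aqp5, Aqp7, Aqp8, Aqp9, Aqp11 and Aqp12) were followed here in mouse testis. They were chosen by name, and all 10 were found among the 22073 genes of the deposited table. Poly(A) RNA was sequenced from the right testis of 2 hemicastrated mice, which had lost the left testis to surgery before puberty, and of 2 control mice, which had a sham operation at that age. All 4 mice were mature males of the outbred KM (Kunming) strain, and the labels name no allele, agent or exact age. The treatment protocol counts 3 mice in each group, the design text 2, and each library is treated here as 1 mouse. The comparison asks whether the testis that remains expresses its genes at another level in the adult.

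Aquaporins form tetramers in which each subunit holds its own pore. The classical members pass water, the aquaglyceroporins also pass glycerol and other small uncharged solutes, and the unorthodox members lie mostly on membranes inside the cell. In the male tract they are known for the loss of cytoplasm and water from maturing spermatids, for the volume control of sperm, and for the uptake of most of the testicular fluid by the efferent ducts and epididymis, which concentrates the sperm.

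The pore is lined by a pair of short loops that meet in the membrane, each with a box whose usual form is asparagine, proline and alanine. These boxes are printed because the 2 most abundant members, Aqp11 and Aqp7, both have an altered box. Each line gives bases of the coding strand from 5′ to 3′ as annotated in GENCODE release M21 on GRCm38, with the 3 codons of the box in capitals.
Aqp11 box 1: acagctagcAACCCGTGCggcgtgatg
Aqp11 box 2: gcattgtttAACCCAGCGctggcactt
Aqp7 box 1: gcccacatgAATGCCGCAgtgactttc
Aqp7 box 2: tatgcaatcAACCCATCCcgtgacctg
Aqp9 box 1: ggccacatcAACCCAGCGgtgtctttt
Aqp9 box 2: tgtgccatgAACCCTGCTcgagacctc
Aqp8 box 1: ggacacttcAACCCTGCTgtgtcgctg
Aqp8 box 2: gcctgcatgAACCCTGCTcgtgccttt
Aqp2 box 1: gcccacatcAACCCTGCTgtgactgtg
Aqp2 box 2: tgctccatgAATCCAGCCcgctccctg
Aqp1 box 1: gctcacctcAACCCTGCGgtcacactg
Aqp1 box 2: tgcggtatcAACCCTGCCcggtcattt

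In Aqp11 the third codon of box 1 encodes cysteine (motif NPC), and box 2 keeps the usual form (NPA). In Aqp7 box 1 reads NAA and box 2 reads NPS. Aqp9, Aqp8, Aqp2 and Aqp1 carry NPA in both boxes, and so do Aqp3, Aqp4 and Aqp5. Aqp12, the other unorthodox member, has NPT in box 1. After box 2, arginine and aspartate follow in the aquaglyceroporins Aqp7 and Aqp9 (the codons cgtgac and cgagac).

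Values are deposited FPKM, fragments scaled to transcript length and to the mapped fragments of the library, which makes levels of different genes comparable per length. The files do not give the read depth. Errors rest on how far the 2 libraries of each group lie apart, for the gene itself and for genes of similar level. The summed FPKM was 343105 and 353135 in the hemicastrated libraries and 346632 and 344316 in the control libraries. The 11343 genes whose mean FPKM was 1 or more were tested with limma on log2(FPKM + 1), and p-values were adjusted over all of them by the Benjamini-Hochberg method. A gene was called at an adjusted p under 0.05. All fold changes are hemicastrated minus control on that scale, which understates the change of low genes. Of the 10 aquaporins, 5 reached the filter.

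The libraries carried the transcripts of a testis, since 10 spermatid markers summed to 22035 and 21984 FPKM in the hemicastrated libraries and to 19428 and 20802 FPKM in the control libraries. Markers of the excurrent ducts also differed between the groups. A list of 13 epididymis markers summed to 2.11 and 2.57 FPKM in the hemicastrated libraries and to 574.4 and 822.5 FPKM in the control libraries. Of its 4 tested members, 3 were called lower in the hemicastrated libraries (Crisp1, Adam7 and Rnase9), and Rnase10 was not called. Over all tested genes, 1.19% were called lower. Crisp1 made up most of the control sums, at 544.9 and 786.1 FPKM, and Lcn5, Lcn8 and Lcn10 were listed at 0 in all 4 libraries. A list of 12 duct epithelium markers summed to 13.2 and 10.6 FPKM in the hemicastrated libraries and to 28.7 and 30.1 FPKM in the control libraries. In whole tissue, fewer cells of a type, from testis or any duct left on it, and less RNA per cell cannot be told apart.

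The order of the 5 tested aquaporins was the same in every library, from Aqp11 through Aqp7, Aqp9 and Aqp8 to Aqp2. No aquaporin was called, against 1.3% of all tested genes (0.106% higher and 1.19% lower). The smallest unadjusted p-values belonged to Aqp9, which stood lower, and Aqp2, which stood higher, so that 2 of 5 members had an unadjusted p under 0.05, as did 10.5% of all tested genes. The median log2 fold change of the 5 tested members was 0.04, beside -0.03 over all tested genes. The groups did not overlap for 3 of the 5 (2 higher, 1 lower), nor did they for 41.2% of all tested genes. The summed FPKM of the 10 genes was 374.7 ± 26 in the hemicastrated libraries and 372.5 ± 39.2 in the control libraries (SD, n = 2 each).

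**Figure D1:**
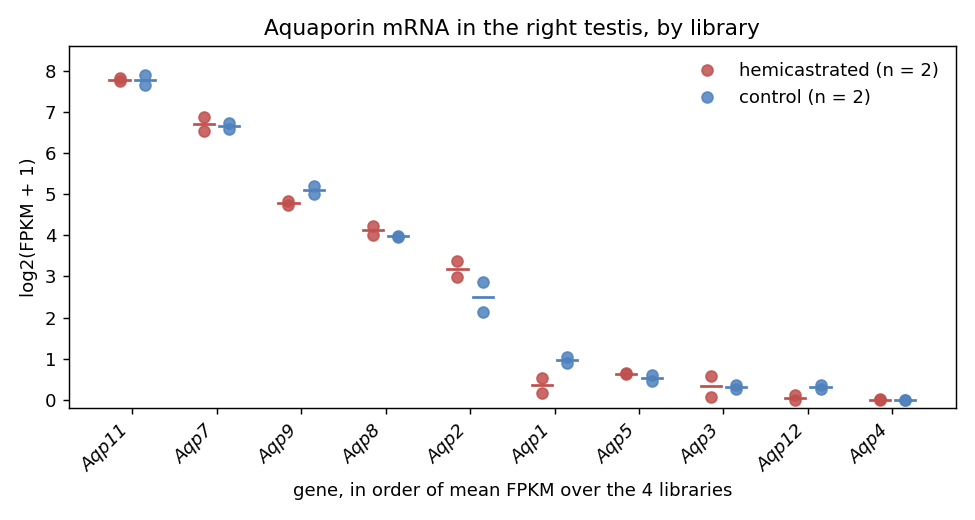
Levels of the 10 aquaporin genes in each library, as log2(FPKM + 1), with genes in order of their mean. Points are libraries (2 hemicastrated, 2 control) and bars are group means. Aqp11 is highest at 198.8 to 236.2 FPKM, and the lowest 5 genes lie at or under 1.07 FPKM in every library.

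Aqp11 (ENSMUSG00000042797, chromosome 7, 97724006 to 97738289, minus strand, GRCm38) encodes an unorthodox channel of the endoplasmic reticulum, without which mice develop polycystic kidneys. Its level was 214.0 and 223.5 FPKM in the hemicastrated libraries and 236.2 and 198.8 FPKM in the control libraries, so the control values lay on either side of the hemicastrated ones. It was above at least 98.8% of all genes in each library. The log2 fold change was 0.01 (SE 0.1, 95% interval -0.24 to 0.26, limma adjusted p = 0.981).

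Aqp7 (ENSMUSG00000028427, chromosome 4, 41033074 to 41048139, minus strand) encodes an aquaglyceroporin that releases glycerol from adipocytes and that is also made by spermatids and kept in the sperm tail of rodents. It stood at 91.1 and 116.2 FPKM in the hemicastrated libraries and at 105.1 and 95.4 FPKM in the control libraries. The groups overlapped, and the log2 fold change was 0.04 (95% interval -0.28 to 0.36, limma adjusted p = 0.945). Its transcript of 2527 bases shares a stretch of up to 167 bases, at 95% identity or more, with transcripts of 28 other genes, so a part of its reads could be assigned elsewhere.

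Both leading genes kept a close ratio within each library. Aqp11 was 2.35 and 1.92 times as high as Aqp7 in the hemicastrated libraries and 2.25 and 2.08 times as high in the control libraries. Together they made up 85.6% and 86.4% of the summed aquaporin FPKM in the hemicastrated libraries and 85.3% in each control library. Spermatid markers had 0 of 10 tested genes called and a median log2 fold change of 0.17. Of the 10, 6 were higher in both hemicastrated libraries and 0 lower, beside 16.3% and 24.8% of all tested genes.

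Aqp9 (ENSMUSG00000032204, chromosome 9, 71110659 to 71168682, minus strand) encodes an aquaglyceroporin of broad solute range, known from liver, from the apical face of epididymal principal cells and, in rat, from Leydig cells. It had 25.6 and 27.3 FPKM in the hemicastrated libraries and 35.8 and 31 FPKM in the control libraries. Both hemicastrated values lay below both control values, as they did for 24.8% of all tested genes. The log2 fold change was -0.32 (SE 0.11, 95% interval -0.58 to -0.06, unadjusted p = 0.0226), and it missed the threshold once all genes were counted (limma adjusted p = 0.356). The epididymis and duct epithelium lists moved with Aqp9, with the sums given above, and their part in its values was not tested. The 9 Leydig markers summed to 1936 and 1830 FPKM in the hemicastrated libraries and to 1668 and 1560 FPKM in the control libraries, with 0 of 9 called. Most of each sum was Insl3 (1609 and 1484 FPKM hemicastrated, 1272 and 1232 FPKM control). The median log2 fold change of the Leydig list was -0.01. Of its markers, 2 were lower in both hemicastrated libraries and 2 higher, beside 24.8% and 16.3% of all tested genes. The 6 markers of neutrophils, which also make Aqp9, summed to 0.984 and 1.27 FPKM in the hemicastrated libraries and to 7.54 and 6 FPKM in the control libraries, with Ly6g listed at 0 in all 4. Most of the control sums was S100a8, the only one tested, which fell to 0.192 and 0 FPKM in the hemicastrated libraries, against 5.74 and 5.32 FPKM in the control libraries (limma adjusted p = 0.000613). The granule enzyme Mpo was at 0.684 and 0.834 FPKM in the hemicastrated libraries and at 0.802 and 0.49 FPKM in the control libraries, and S100a9, Elane and Csf3r overlapped between the groups too. The part of neutrophils in the Aqp9 values was not tested.

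Aqp8 (ENSMUSG00000030762, chromosome 7, 123462291 to 123468004, plus strand) encodes a channel for water, ammonia and hydrogen peroxide, known from liver, colon, pancreas and testis. It was at 17.8 and 15.1 FPKM in the hemicastrated libraries and at 14.8 and 14.6 FPKM in the control libraries. The hemicastrated values were the higher ones by a narrow margin, in a pattern that 16.3% of tested genes shared. The log2 fold change was 0.15 (95% interval -0.13 to 0.43, limma adjusted p = 0.718).

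Aqp9 and Aqp8 stood closer to each other in the hemicastrated libraries, though neither gene was called. The ratio of Aqp9 to Aqp8 was 1.44 and 1.81 in the hemicastrated libraries and 2.42 and 2.12 in the control libraries. The ratio of Aqp9 to Aqp7 was 0.281 and 0.235 in the hemicastrated libraries and 0.341 and 0.325 in the control libraries. Neither pair of groups overlapped. For Aqp9 to Aqp8 this follows from the levels, since Aqp9 was lower and Aqp8 higher in both hemicastrated libraries. The ratios were looked at after the levels were seen and were not tested.

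Aqp2 (ENSMUSG00000023013, chromosome 15, 99579055 to 99584547, plus strand) encodes the channel that vasopressin inserts into the apical membrane of the kidney's collecting duct and that is known in rat from the vas deferens. Its level was 6.91 and 9.36 FPKM in the hemicastrated libraries and 6.25 and 3.38 FPKM in the control libraries. The groups did not overlap, yet hemicastrated 1 and control 1 were near each other. The log2 fold change was 0.68 (SE 0.26, 95% interval 0.06 to 1.31, unadjusted p = 0.0372), the largest of the 5, and it missed the threshold once all genes were counted (limma adjusted p = 0.426). It was 0.32 without control 2 and 1.05 without control 1.

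**Figure D2:**
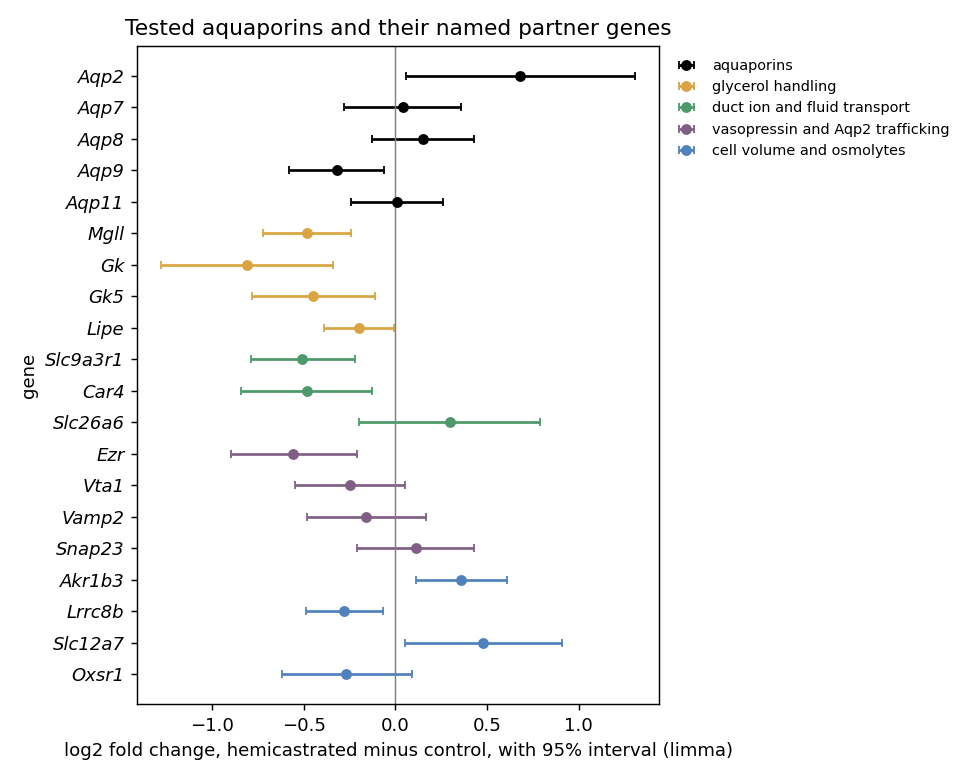
Log2 fold change, hemicastrated minus control, of the 5 tested aquaporins (black) and of genes named from 4 partner lists (colours). Points are limma estimates on log2(FPKM + 1) and bars their 95% intervals for each gene alone. The intervals of Aqp2 and Aqp9 miss 0, and those of Aqp7, Aqp8 and Aqp11 span it. No gene shown passed the threshold over all genes.

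The order of the 5 upper members did not depend on the group. The range over all 4 libraries was 198.8 to 236.2 FPKM for Aqp11, 91.1 to 116.2 for Aqp7, 25.6 to 35.8 for Aqp9, 14.6 to 17.8 for Aqp8 and 3.38 to 9.36 for Aqp2, and no range touched the next. The lower 5, in order of their means Aqp1, Aqp5, Aqp3, Aqp12 and Aqp4, could not be fully ranked, since each range overlapped the next. Genes further apart in this order could differ, as did Aqp5 (0.375 to 0.568 FPKM) and Aqp12 (0 to 0.283 FPKM).

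By class, Aqp11 and Aqp12 took 60.1% and 56.9% of the summed aquaporin FPKM in the hemicastrated libraries and 59.1% and 57.7% in the control libraries. The aquaglyceroporins Aqp3, Aqp7 and Aqp9 took 32.8% and 36.7% in the hemicastrated libraries and 35.3% and 36.7% in the control libraries. Aqp8 alone took 5.01% and 3.85% in the hemicastrated libraries and 3.69% and 4.24% in the control libraries. The classical water channels Aqp1, Aqp2, Aqp4 and Aqp5 took 2.13% and 2.64% in the hemicastrated libraries and 1.96% and 1.34% in the control libraries, with Aqp2 as the main part. The groups overlapped in the first 3 classes and did not overlap in the last. Aqp2 itself did not overlap either and was not called, and 41.2% of all tested genes did not overlap.

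**Figure D3:**
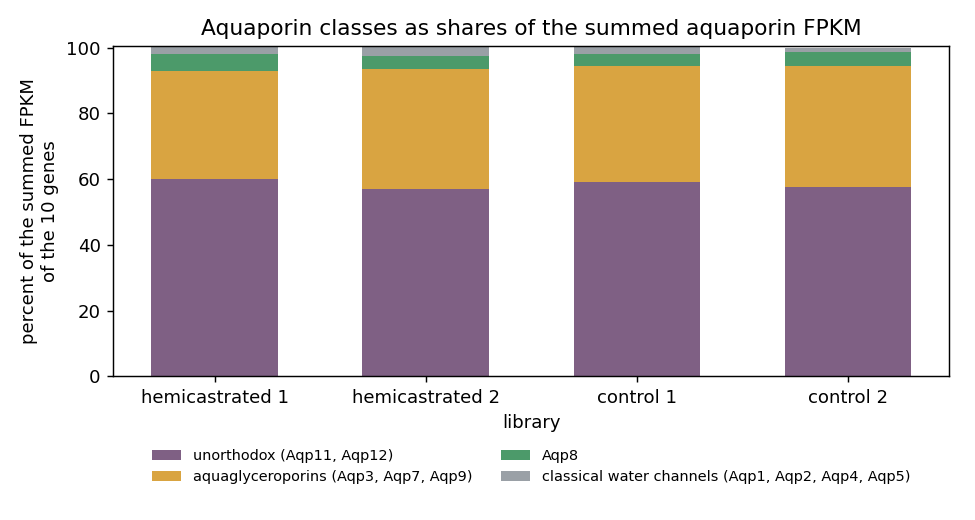
Share of the summed FPKM of the 10 aquaporin genes taken by each channel class, in percent, with 1 bar per library. Aqp11 and Aqp12 take 56.9% to 60.1% and the aquaglyceroporins 32.8% to 36.7%, with little difference between the groups.

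Below the filter, Aqp1 had the highest mean and the largest difference on the log2(FPKM + 1) scale, while Aqp12, at lower levels, differed more as a ratio of group means. Aqp1 (ENSMUSG00000004655, chromosome 6, 55336432 to 55348555, plus strand) encodes the water channel of red cells, of endothelium outside the brain and, in rodents, of the efferent ducts. It was at 0.134 and 0.446 FPKM in the hemicastrated libraries and at 1.07 and 0.862 FPKM in the control libraries. Both hemicastrated values were lower, as in 24.1% of the 7244 genes that were above 0 in a library and under the filter. The means were 0.29 ± 0.221 FPKM in the hemicastrated and 0.964 ± 0.145 FPKM in the control libraries (SD, n = 2 each), a difference of -0.62 on the log2(FPKM + 1) scale. With no filter on low values, where it was tested, limma gave an adjusted p of 0.291 and a 95% interval of -1.01 to -0.22.

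The markers of the cell types that make Aqp1 differed in how they moved. Over all genes, 24.8% of those tested and 24.1% of those under the filter were lower in both hemicastrated libraries, and 1.19% of those tested were called lower. Of the 12 duct epithelium markers, 11 were lower in both hemicastrated than in both control libraries. Of the 5 that were tested, 3 fell: the keratins Krt19 (0 and 0.0374 FPKM in the hemicastrated libraries, 3.01 and 3.86 FPKM in the control libraries, limma adjusted p = 0.00169), Krt18 and Krt8, the last 2 named after their values were seen. Without control 2, 1 of them was called. The epithelial adhesion molecule Epcam was at 9.51 and 7.44 FPKM in the hemicastrated libraries and at 12 and 11.8 FPKM in the control libraries, and was not called. The part of duct epithelium in the Aqp1 values was not tested.

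Endothelial and erythroid markers had 0 calls. The 10 endothelial markers summed to 10.9 and 11 FPKM in the hemicastrated libraries and to 13.4 and 10.9 FPKM in the control libraries. Of these, 5 were lower in both hemicastrated libraries, all 5 under the filter, where 24.1% of genes were so. The 7 erythroid markers in the table summed to 36.7 and 25.4 FPKM in the hemicastrated libraries and to 40.3 and 35.9 FPKM in the control libraries, and Hba-a2 was listed at 0 in all 4. Their part in the Aqp1 values was not tested either.

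**Figure D4:**
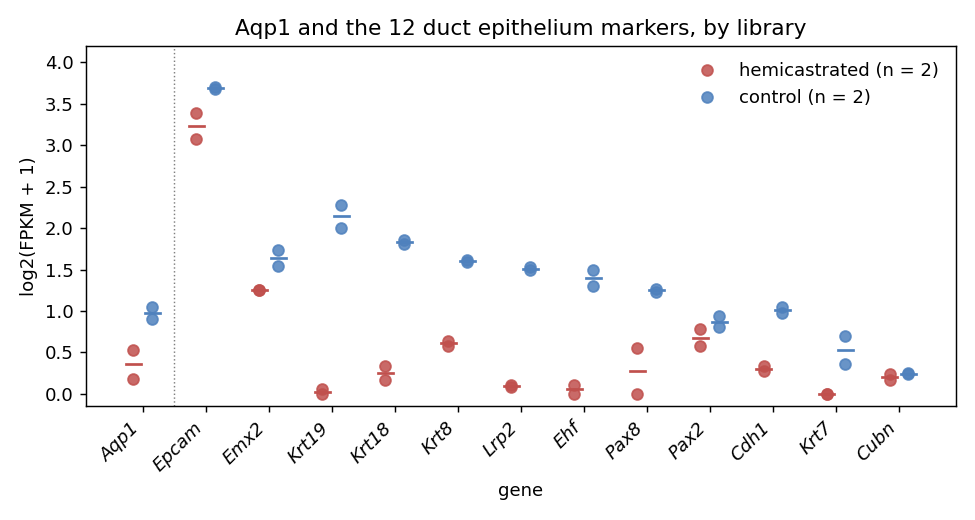
Levels of Aqp1 (left of the dotted line) and of the 12 duct epithelium markers in each library, as log2(FPKM + 1), with points for libraries and bars for group means. Aqp1 and 11 of the 12 markers are lower in both hemicastrated libraries, and Cubn overlaps. Over all genes, 24.8% of those tested and 24.1% of those under the filter are lower in both.

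The other low members gave no call in any setting in which they were tested. Aqp12, a channel of pancreatic acinar cells, was at 0.0817 and 0 FPKM in the hemicastrated libraries and at 0.283 and 0.204 FPKM in the control libraries, lower in both. Aqp5, the apical channel of salivary, lacrimal and airway glands, was at 0.548 and 0.568 FPKM in the hemicastrated libraries and at 0.524 and 0.375 FPKM in the control libraries, slightly higher in both. Of the 5 members under the filter, 2 were thus lower than the controls in both libraries and 1 higher, beside 24.1% and 12.3% of the genes under the filter, or 36.4% in either direction.

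Aqp3, the basolateral aquaglyceroporin of collecting duct and of basal cells in skin and, in rat, epididymis, was at 0.0445 and 0.507 FPKM in the hemicastrated libraries and at 0.286 and 0.197 FPKM in the control libraries. The 2 hemicastrated libraries stood on either side of the controls. Basal cell markers summed to 3.31 and 4.3 FPKM in the hemicastrated libraries and to 5.83 and 5.37 FPKM in the control libraries. Of the 8, 5 were lower in both hemicastrated libraries, all 5 under the filter, where 24.1% of genes were so. The members with the highest means were Itga6, at 1.99 and 2.52 FPKM in the hemicastrated libraries and 2.36 FPKM in each control library, and Ngfr, at 0.967 and 1.02 FPKM in the hemicastrated libraries and 1.02 and 0.903 FPKM in the control libraries. Both overlapped, as did Trp63, while Krt5 and Krt14, named after their values were seen, were listed at 0 in both hemicastrated libraries. Aqp4, the channel of astrocyte end-feet, was at 0.0114 FPKM in hemicastrated 1 and listed at 0 in the other 3 libraries. Outside the 10 genes, Aqp6, an intracellular channel of kidney, was listed at 0 in all 4 libraries, and Mip, the channel of lens fibres, reached 0.0574 FPKM at most and shares exon sequence with an antisense gene.

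Aquaporin genes that lie close together in the genome differed widely in level. Aqp2, Aqp5 and Aqp6 follow each other on the plus strand of chromosome 15, with 6.2 kb between Aqp2 and Aqp5 and 6.6 kb between Aqp5 and Aqp6 and no annotated gene between them. Aqp2 was 12.6 and 16.5 times as high as Aqp5 in the hemicastrated libraries and 11.9 and 9 times as high in the control libraries, and Aqp6 was listed at 0. On the minus strand of chromosome 4, Aqp7 and Aqp3 lie 44.6 kb apart, with the annotated gene Gm25637 between them. Aqp7 was at least 229.3 times as high as Aqp3 in each library. No exon of the 10 members overlaps an exon of another annotated gene.

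The genes whose profile over the 4 libraries was nearest to each tested aquaporin were found by the Euclidean distance between centred log2(FPKM + 1) values. For Aqp2 these were Tmsb15b2, Fbxw17 and Zfp691, at distances of 0.18, 0.2 and 0.24. For Aqp9 they were Hacd2, Ikbkb and Adam10, at 0.013, 0.023 and 0.028. For Aqp8 they were Cd96, Mum1l1 and 0610012G03Rik, for Aqp7 Zfp672, Ptp4a3 and Dnah3, and for Aqp11 Epn1, Pomgnt1 and Adig. With 4 libraries such nearness is common: 454 genes lay within 0.1 of Aqp11, 206 of Aqp8, 141 of Aqp7 and 97 of Aqp9, and 0 of Aqp2.

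Genes that handle the glycerol passed by Aqp7, Aqp9 and Aqp3 were not called either (0 of 10 tested, median log2 fold change -0.02). The testis glycerol kinases Gk2 and Gykl1, looked at after their values were seen, were at 173.4 and 185.2 FPKM and at 134.3 and 140.5 FPKM in the hemicastrated libraries, and at 155.4 and 169.2 FPKM and at 132.2 and 128.5 FPKM in the control libraries. The monoacylglycerol lipase Mgll was at 14.8 and 16.2 FPKM in the hemicastrated libraries and at 22.1 and 21.8 FPKM in the control libraries (log2 fold change -0.48, limma adjusted p = 0.133). The broadly expressed kinase Gk had a log2 fold change of -0.81, Gk5 of -0.45 and the hormone-sensitive lipase Lipe of -0.2. Of the 10 genes, 4 were lower in both hemicastrated libraries (Gk, Gk5, Lipe and Mgll) and 2 were higher (Gk2 and Gykl1). The shares over all tested genes were 24.8% lower and 16.3% higher.

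Genes for the ion transport that drives fluid uptake in the ducts had 0 of 7 tested members called (median log2 fold change -0.04), and 6 of all 11 were lower in both hemicastrated libraries, beside 24.8% of all tested genes and 24.1% of those under the filter. The scaffold Slc9a3r1, which anchors the sodium-proton exchanger, was at 5.9 and 6.4 FPKM in the hemicastrated libraries and at 8.75 and 9.57 FPKM in the control libraries (log2 fold change -0.51, limma adjusted p = 0.183). The membrane carbonic anhydrase Car4 had a log2 fold change of -0.48 and the anion exchanger Slc26a6 of 0.3. The exchanger Slc9a3 itself, known in mouse for its role in efferent duct reabsorption and named after its values were seen, was at 0 and 0.0463 FPKM in the hemicastrated libraries and at 0.172 and 0.321 FPKM in the control libraries.

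For the vasopressin path that controls Aqp2 in kidney, 0 of 8 tested genes were called (median log2 fold change 0.05). Its receptor gene Avpr2, named after its values were seen, was at 0.0253 and 0.022 FPKM in the hemicastrated libraries and at 0 and 0.0216 FPKM in the control libraries. Ezrin, Ezr, which links membranes to actin, was at 1.8 and 2.27 FPKM in the hemicastrated libraries and at 3.54 and 3.35 FPKM in the control libraries (log2 fold change -0.56, limma adjusted p = 0.225). Vta1, a sorting protein, had a log2 fold change of -0.25, and the fusion proteins Vamp2 and Snap23 of -0.16 and 0.11.

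Cell volume and osmolyte genes had 0 of 15 tested members called (median log2 fold change -0.08). The volume-regulated anion channel subunit Lrrc8b was at 55.7 and 59 FPKM in the hemicastrated libraries and at 67.5 and 72.4 FPKM in the control libraries (log2 fold change -0.28, limma adjusted p = 0.322). The sorbitol-forming enzyme Akr1b3 was at 25.1 and 22.3 FPKM in the hemicastrated libraries and at 18.3 and 18.2 FPKM in the control libraries (log2 fold change 0.36, limma adjusted p = 0.276). The potassium-chloride cotransporter Slc12a7 had a log2 fold change of 0.48 and the kinase Oxsr1 of -0.27.

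Among the remaining marker lists, 5 of 10 tested smooth muscle genes were called lower (median log2 fold change -1.02), beside 1.19% of all tested genes. The list summed to 234.8 and 263.6 FPKM in the hemicastrated libraries and to 356.3 and 315.0 FPKM in the control libraries. Most of each sum was Actg2, which was not called (183.5 and 209.3 FPKM hemicastrated, 218.7 and 213.2 FPKM control). No tested gene was called for clear cells (0 of 1), macrophages (0 of 7, median -0.09) or adipocytes (0 of 3, median -1.7). The same held for Sertoli cells (0 of 9, median 0.2) and spermatocytes (0 of 8, median 0.39). Of the 11 Sertoli markers, 4 were higher in both hemicastrated libraries and 1 lower. Of the 8 spermatocyte markers, 6 were higher in both and 1 lower. The shares over all tested genes were 16.3% higher and 24.8% lower. Of the 5 clear cell markers, 3 were lower in both hemicastrated libraries, all 3 under the filter, where 24.1% of genes were so. The rest overlapped. Adipoq, the adipocyte marker with the highest mean, was at 5.25 and 6.01 FPKM in the hemicastrated libraries and at 5.78 and 6.39 FPKM in the control libraries, and overlapped. Fabp4, beside which Aqp7 is known in fat, was at 0.298 and 0.455 FPKM in the hemicastrated libraries and at 7.19 and 2.6 FPKM in the control libraries, and was not called (limma adjusted p = 0.086).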

How the data were processed

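Poly(A) RNA of 4 right testes was sequenced as paired-end Illumina libraries, per the labels' protocols, which describe no strand marking. TopHat2 2.0.11, Cufflinks 2.2.1 and the build GRCm38 are listed, without roles, in the submitters' processing notes. No source used here gives the annotation. The authors deposited FPKM for each gene in each library, per the file headers. GENCODE release M21 on GRCm38 supplied loci, with symbols for 21806 of 22073 identifiers, and may differ from the authors' annotation. FPKM carry no counts, so depth is unknown and counting intervals are left out. A value of exactly 0 may be an estimate that failed and is described as listed at 0.

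Genes whose mean reached 1 FPKM were tested on log2(FPKM + 1) by limma 3.58.1 (R 4.3.3), using a variance trend and no covariate, two-sided, with Benjamini-Hochberg adjustment. The procedure was tested on simulated data. An exact permutation test of 2 libraries against 2 was not used, since so few libraries cannot reach the threshold. The p-values rest on the spread within the groups of these 4 libraries, 1 per animal, in the gene itself and in genes of similar level. Near-identical copies were searched for among annotated transcripts, as matching stretches of at least 100 bases and 95% identity.

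The members and lists were chosen with earlier results of these data known. Named genes were, per partner list, up to 4 tested members by smallest p, per marker list up to 3 members with the highest mean, and the 3 nearest profiles per tested aquaporin; 1 gene that this rule names is not reported here. Alternatives were another pseudocount, other filters, TPM scaling, quantile normalization, no trend, robust hyperparameters, a replicate block and leaving out each library. DNA methylation, which the series title names, was not analysed here.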

Additional observations from a re-analysis of the deposited data

How the results depend on the processing

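No aquaporin and no partner gene was called in any of the 12 alternatives. Across them the log2 fold change stayed positive for Aqp2 (0.32 to 1.05, lowest adjusted p 0.293) and Aqp8 (0.04 to 0.26) and negative for Aqp9 (-0.42 to -0.22, lowest adjusted p 0.319). Aqp7 and Aqp11, both near 0, changed sign: with 1 library left out they ranged from -0.13 to 0.21 and from -0.11 to 0.14, and Aqp11 was -0.002 under quantile normalization. The untested differences of Aqp1, Aqp5 and Aqp12 were -1.57, 0.27 and -1.34 with a pseudocount of 0.1, and that of Aqp1 was -0.79 to -0.44 with 1 library left out.

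Over all genes, 12 were higher and 135 lower. With no filter 3 were higher, and under a filter of 5 FPKM, where fewer genes are tested, 7 were higher and 63 lower. With 1 library left out, 0 to 26 were higher and 78 to 156 lower. The lowest counts came without control 2, and 1000 genes then had an unadjusted limma p under 0.05. Such fits assume that the lone library of a group varies like the other group. Duct epithelium markers called were 3, 0 under the filter of 5 FPKM, where most are not tested, and 1 to 2 with 1 library left out. With the replicate number as a block, 30 genes were higher and 167 lower. The numbers do not pair the libraries by any label, and deviations of same-numbered libraries had a correlation of 0.014 across genes. Unknown depth limits what can be said of the 5 aquaporins with a mean under 1 FPKM.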
